A study of Mus musculus with 12 samples.

Results

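The genes described here are 9 transcription factors of the ventromedial and ventral hypothalamus, chosen by symbol: Nr5a1, Fezf1, Nkx2-1, Nkx2-2, Nkx2-4, Six3, Six6, Hmx2 and Hmx3. All 9 were among the 32531 gene rows of the deposited count tables, and all 9 were tested. The mice were adults of the Slc17a6-TRAP line JX883, which carries a transgene for the ribosomal protein Rpl10a fused to EGFP under the control of Slc17a6, the gene of the vesicular glutamate transporter VGLUT2 of subcortical excitatory neurons. Tagged polysomes were captured from the dissected hypothalamus or midbrain with antibodies against EGFP (the IP, ribosome-bound RNA of the tagged cells), and RNA of the undivided tissue was sequenced beside it (the input). The groups were hypothalamus IP, hypothalamus input, midbrain IP and midbrain input, with 3 libraries each and the transgene in all of them. Sex, age in weeks, and whether a library held 1 animal or a pool are not stated in the labels, so p-values measure the spread between these libraries, which may in part be technical. An IP from mice without the tag is not analysed here.

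The ventral hypothalamus is laid out in the embryo by homeodomain factors of the NKX2 family and by relatives of fly sine oculis such as Six3 and Six6, under ventral midline signals, and several of them remain active in adult neurons. Within it, the ventromedial nucleus is a largely glutamatergic cell group of energy balance and social behaviour, and Nr5a1 (steroidogenic factor SF-1) is its best known marker. The arcuate nucleus, where Hmx2 and Hmx3 act in neurons that make growth hormone releasing hormone, and the suprachiasmatic nucleus, where Six6 and Six3 are made, hold many GABAergic neurons.

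Counts over genes came to between 41909019 and 55148109 per library. Ambiguous reads were 1.372 to 1.997% of the counts in all rows in the IPs and 4.034 to 16.154% in the inputs. Reads without a unique place were 37.33 to 48.588% in the IPs and 23.733 to 30.037% in the inputs. The gene Rn45s held 5.2056 to 12.4669% of counts in the IPs and 2.5742 to 3.971% in the inputs. The part of these differences in the IP against input values, and in the counts of overlapped members, was not tested. Values below are CPM (counts scaled by library size with edgeR's trimmed mean of M values), given for replicates 1, 2 and 3 in that order, with mean ± SD over n = 3. The driver gene Slc17a6 was at 2118 ± 1227 CPM in the hypothalamus IP against 348.8 ± 154 in the input, and the GABAergic genes Gad1, Gad2 and Slc32a1 were lower in both IPs. All IP libraries carried one index and all inputs another, so fraction and index cannot be told apart. Within a replicate number the 2 regions were on separate lanes, and their effects cannot be told apart there.

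The 9 genes lie on 5 chromosomes (mm10, GENCODE gene bounds). Nr5a1 spans chromosome 2, 38692656 to 38714542, on the minus strand, and Nkx2-2 (147177546 to 147194243) and Nkx2-4 (147083316 to 147085445), on the same strand of that chromosome, are 92101 bp apart. Hmx3 (chromosome 7, 131542867 to 131544925) and Hmx2 (131548773 to 131558014) are 3848 bp apart on the plus strand, both inside the bounds of Fgfr2, which is transcribed from the minus strand. Nkx2-1 (12, 56531958 to 56536908, minus) and Six6 (12, 72939892 to 72944899, plus) share a chromosome, Six3 lies at 17, 85613608 to 85629302, plus, and Fezf1 at 6, 23245044 to 23248362, minus. Genes on the opposite strand overlap 7 of the 9, which leaves those counts uncertain because it is not known whether the counting used strand.

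Promoter windows of 250 bases before the start site were taken from the RefSeq table for GRCm38.p6, in which 8 of the 9 genes matched, with 9 windows. Both strands were searched for 4 motifs. These were the box spelled CCAAT, the core bound by NKX2 factors spelled CAAGTG, the promoter element spelled TATAAA, and the element bound by NR5A receptors spelled AAGGTCA. None of these motifs overlaps another in the member windows. The Six3, Nkx2-2 and Nkx2-1 windows are shown because Six3 and Nkx2-2 were lower in the IP of both regions, while Nkx2-1 was the one member that was higher in the hypothalamus IP. Capitals mark CCAAT boxes in Six3 (chr17:85620584-85620833, plus strand) and the NKX2 core in Nkx2-2 (chr2:147186403-147186652, minus strand). The Nkx2-1 window (chr12:56536909-56537158, minus strand) held none of the 4 motifs and has no capitals.
Six3: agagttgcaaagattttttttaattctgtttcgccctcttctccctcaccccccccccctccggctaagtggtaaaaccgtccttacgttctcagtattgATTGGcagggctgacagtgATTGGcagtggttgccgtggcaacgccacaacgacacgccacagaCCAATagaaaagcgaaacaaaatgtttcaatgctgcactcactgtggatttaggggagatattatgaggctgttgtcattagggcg
Nkx2-2: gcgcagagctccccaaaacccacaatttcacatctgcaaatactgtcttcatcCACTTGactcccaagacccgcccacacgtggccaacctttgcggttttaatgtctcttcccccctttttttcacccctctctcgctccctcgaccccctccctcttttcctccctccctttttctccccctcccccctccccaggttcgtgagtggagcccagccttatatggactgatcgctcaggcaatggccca
Nkx2-1: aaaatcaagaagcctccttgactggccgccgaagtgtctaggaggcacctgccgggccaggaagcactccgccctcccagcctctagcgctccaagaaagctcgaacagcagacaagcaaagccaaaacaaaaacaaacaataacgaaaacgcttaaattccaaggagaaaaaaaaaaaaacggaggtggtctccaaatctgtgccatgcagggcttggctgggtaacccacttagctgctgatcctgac
Six3 held 3 CCAAT boxes, which begin 150, 131 and 86 bases before its start site, Fezf1 held 3 and Six6 held 2, whereas 33.8% of 32851 promoter windows held at least 1 and 10.1% held 2 or more. One window of Hmx2 held a CCAAT box and the other a TATA element 29 bases before the start, which 12.4% of windows have. The NKX2 core of Nkx2-2 begins 197 bases before its start and occurs in 11.6% of windows, and the NR5A element, found in 4.08%, was in no member window. The longest run shared by windows of different members was 12 bases, in Nkx2-2 and Six6, and several pairs share 11. The Six3 and Six6 windows share a run of 11 bases around a CCAAT box, which 0.0335% of windows have. This run begins 153 bases before the Six3 start and 71 before that of Six6. It is in capitals in these stretches of 30 bases (chr17:85620672-85620701 and chr12:72939802-72939831, both plus strand).
Six3, stretch: ttctcagtaTTGATTGGCAGggctgacagt
Six6, stretch: gtcgcagccTTGATTGGCAGagcagcctag
These matches are letters in a window, with no measurement of binding in these data.

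Where the 9 factors are expressed was addressed by comparing the regions within a fraction. All 9 had counts in all 6 hypothalamus libraries, 6 had no count in any midbrain IP library and 3 (Fezf1, Nkx2-4 and Six6) had no count in any midbrain library. Between the IPs, 8 of 9 passed the test as higher in the hypothalamus (edgeR quasi-likelihood test, adjusted p under 0.05), where 2.05% of 18128 genes tested were higher, 2.21% lower and 4.26% called in all, and the exception was Nkx2-2. Between the inputs, Nr5a1, Fezf1, Nkx2-1, Six6 and Hmx2, 5 of 9, passed as higher, where 1.00% of genes were higher, 0.601% lower and 1.61% called. The factors were chosen as hypothalamic genes, and 2 of 9 (Nkx2-2 and Six3) had 3 or more midbrain libraries above the count minimum of the filter, so the other members passed the filter through the hypothalamus and the counts describe this choice. In bulk samples, fewer cells of a type and less RNA per cell cannot be told apart.

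**Figure D1:**
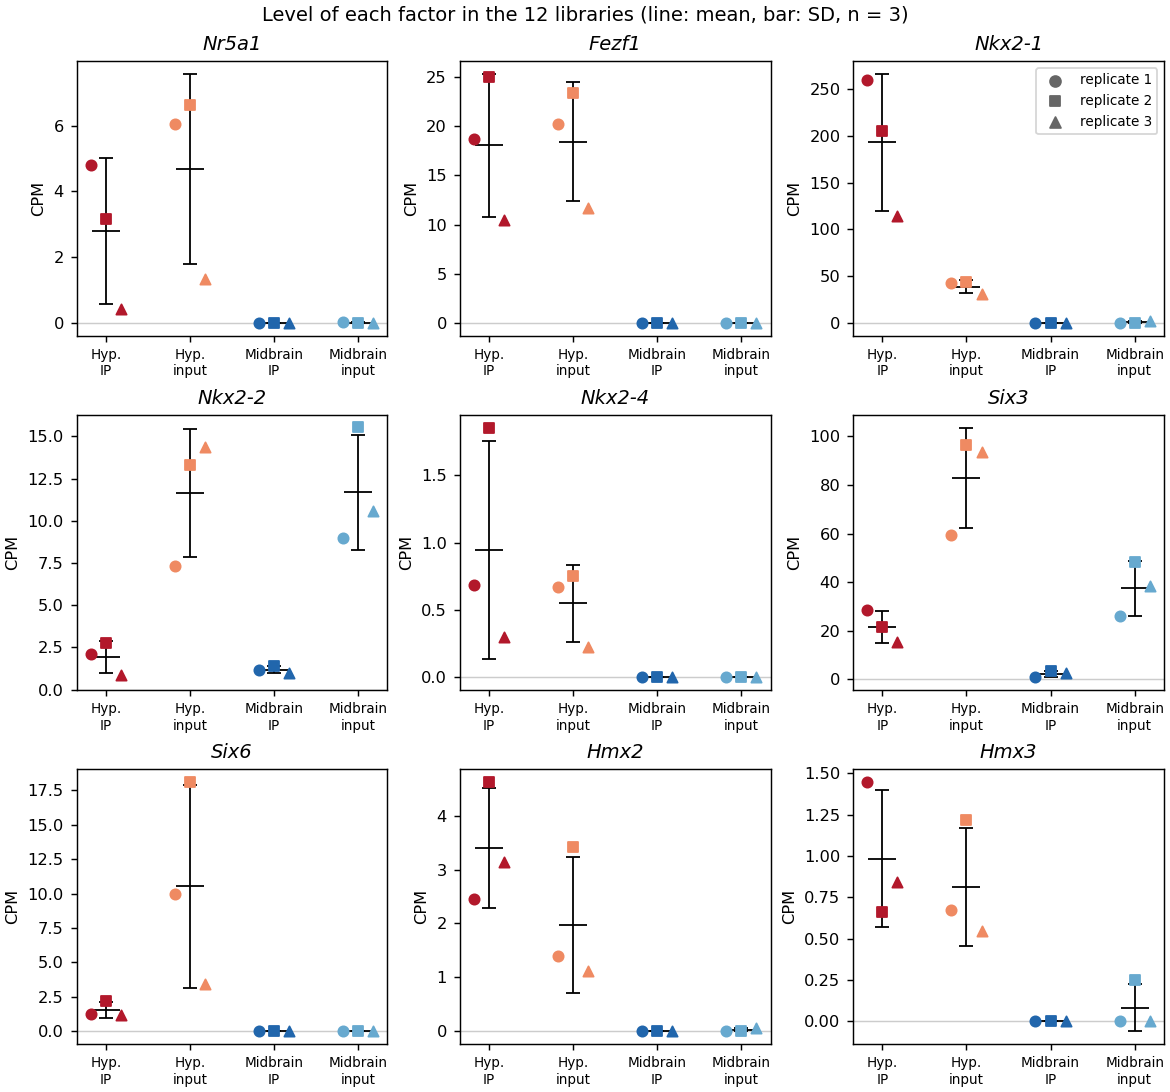
CPM (vertical axes, linear, one scale per gene) of the 9 factors in hypothalamus (Hyp.) and midbrain IP and input libraries; points are libraries, with the shape giving the replicate number, lines are means and bars are SD (n = 3). The midbrain libraries lie at or near 0 for all but Nkx2-2 and Six3, and replicate 3 is often the lowest hypothalamus point.

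The ventromedial factor Nr5a1, a nuclear receptor also made in pituitary gonadotropes and steroid-producing glands, was at 4.81, 3.16 and 0.431 CPM in the hypothalamus IP. In the hypothalamus input it was at 6.06, 6.64 and 1.35 CPM. No midbrain IP library had a count, and the midbrain inputs held 1 count in all. Replicate 3 was the lowest library of both hypothalamus groups, and every hypothalamus library was above every midbrain library. In the IPs the hypothalamus mean was at least 45.5-fold higher against a floor of 3 counts per library (adjusted p = 0.00669). The inputs differed by a ratio of 667.7, with a 95% exact Poisson interval from 119.8 to 26370 that covers counting error only (adjusted p = 0.0103). This call was lost without any one of the 3 midbrain inputs (adjusted p between 0.0586 and 0.067).

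Fezf1, a zinc finger repressor that the ventromedial nucleus needs to form, was at 18.7, 24.99 and 10.45 CPM in the hypothalamus IP, beside input levels of 20.2, 23.4 and 11.7. The same counts summed over libraries, 2846, were found in both fractions, and the groups overlapped. With no count in 6 midbrain libraries, the hypothalamus was at least 292.8-fold higher in the IP (adjusted p = 0.000191) and at least 289.6-fold higher in the input (adjusted p = 0.000539). Replicate 2 was the highest and replicate 3 the lowest library of both hypothalamus groups.

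Nkx2-1, the homeodomain factor that specifies the ventral forebrain and hypothalamus (and thyroid and lung), had 259.7, 205.8 and 114.2 CPM in the hypothalamus IP. The input libraries held 42.7, 43.6 and 30.5 CPM. The midbrain IPs held 5 counts in all and the midbrain inputs 0.0769, 0.124 and 1.68 CPM. The hypothalamus IP libraries were all above the hypothalamus input libraries, and both were above all midbrain libraries. The ratio between the IPs was 5657 (95% interval 2424 to 17420, adjusted p = 0.000162), and the log2 fold change between the inputs was 6.01 (SE 0.84, adjusted p = 0.00387). The call between the inputs was lost without the 4 libraries numbered 1 (5.40, adjusted p = 0.0708). Of 81 counts in the midbrain inputs 71 were in replicate 3, which also had the highest summed level of the 7 markers of striatum and telencephalon, 130.8 CPM against 87.5 and 80.5 in replicates 1 and 2. The part of that tissue in the Nkx2-1 counts was not tested.

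Nkx2-4, the close relative of Nkx2-1 in the ventral hypothalamus, was low, at 0.685, 1.855 and 0.300 CPM in the hypothalamus IP (input 0.674, 0.752 and 0.222). Without counts in the midbrain, it was at least 15.4-fold higher in the hypothalamus IP (adjusted p = 0.0244) and at least 8.63-fold higher in the input, where it did not pass (adjusted p = 0.0589). The call between the IPs was lost without hypothalamus IP replicate 2 (0.0684) and without midbrain IP replicate 1 (0.0604), 2 (0.0607) or 3 (0.0503). Nkx2-4 passed between the inputs with the replicate number as a block (adjusted p = 0.0228), with DESeq2 (0.000843), with limma-voom (0.0241) and with library sizes alone (0.0485).

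Nkx2-2, the NKX2 factor of the ventral neural tube that is also made by oligodendrocyte precursors, was the member that did not follow the region. Its levels were 2.135, 2.74 and 0.899 CPM in the hypothalamus IP, with 1.19, 1.40 and 0.995 in the midbrain IP. The inputs stood at 7.33, 13.3 and 14.4 CPM in the hypothalamus and 8.99, 15.5 and 10.6 in the midbrain. Regions overlapped in both fractions. Between the IPs the log2 fold change was 0.68 (SE 0.41, adjusted p = 0.423), and between the inputs it was 0.00 (SE 0.40, adjusted p = 1.00), with means of 11.7 and 11.7 CPM.

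Six3, which represses WNT signals in the anterior forebrain and is made in some adult inhibitory neurons, stood at 28.4, 21.4 and 15.2 CPM in the hypothalamus IP, with midbrain IP levels of 0.914, 3.36 and 2.455. The inputs held 59.3, 96.3 and 93.3 CPM in the hypothalamus and 25.9, 48.5 and 38.3 in the midbrain. Hypothalamus libraries were above midbrain libraries in each fraction. The log2 fold change was 3.27 between the IPs (SE 0.43, adjusted p = 0.00129) and 1.14 between the inputs (SE 0.39, adjusted p = 0.236). With a block for the replicate number, the inputs passed as well (1.16, adjusted p = 0.045), and the block raised the members called between the inputs from 5 to 7 and the genes called higher from 182 to 521.

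Six6, the close relative of Six3 in the eye field, the suprachiasmatic nucleus and the pituitary, had 1.23, 2.20 and 1.20 CPM in the hypothalamus IP, against 9.98, 18.1 and 3.44 for the input. It had no midbrain count, which put the hypothalamus at least 25.1-fold higher in the IP (adjusted p = 0.00552) and at least 165.4-fold higher in the input (adjusted p = 0.00302). Input replicate 2 held the highest level and input replicate 3 the lowest.

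The paired homeobox genes Hmx2 and Hmx3 were low in the hypothalamus. Hmx2 was at 2.46, 4.65 and 3.15 CPM in the IP and at 1.39, 3.44 and 1.11 in the input. Hmx3 had 1.45, 0.661 and 0.843 CPM in the IP and 0.674, 1.22 and 0.544 in the input. Neither had a midbrain IP count, so the hypothalamus IP was at least 55.5-fold higher for Hmx2 (adjusted p = 0.00211) and at least 15.98-fold higher for Hmx3 (adjusted p = 0.0378), a call that was lost without any one of 9 of the 12 libraries in turn (adjusted p between 0.0534 and 0.0891). In the midbrain inputs Hmx2 had 2 counts, both in replicate 3, for a ratio of 141.0 (95% interval 39.0 to 1164, adjusted p = 0.0103). That call was lost without midbrain input replicate 1 (0.0537) or 2 (0.0573), and without the 4 libraries numbered 3 (0.072), which hold both counts. Hmx3 had 12 counts there, all in replicate 2, and did not pass (log2 fold change 3.25, SE 1.33, adjusted p = 0.37) except with limma-voom (4.66, adjusted p = 0.043). Both genes were chosen as hypothalamic, so their shared direction between the IPs is no result about neighbours in the genome. Their highest hypothalamus IP library was replicate 2 for Hmx2 and replicate 1 for Hmx3.

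Which of the factors are held on ribosomes of Slc17a6-expressing cells was addressed by the hypothalamus IP against its input. Of the 9 factors Nkx2-1 was higher in the IP, Nkx2-2, Six3 and Six6 were lower and 5 did not pass, a share of 4 of 9 beside 33.8% of all genes tested (14.2% higher and 19.6% lower). The median log2 fold change was -0.03 for the 9 and -0.08 for all genes tested. With library sizes alone as the scaling, 1632 genes rose and 4011 fell in place of 2576 and 3547, the median of all genes moved to -0.25, and the same 4 members passed in the same directions. Libraries of IP and input did not overlap for those 4 and overlapped for the other members. The share of all genes tested without overlap was not computed, so this only describes the members.

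Nkx2-1 was higher by 2.31 on the log2 scale, with SE 0.68 (adjusted p = 0.0197), and IP over input was 6.09, 4.72 and 3.74 in replicates 1, 2 and 3. Slc17a6 itself had ratios of 6.73, 5.155 and 5.61. The call for Nkx2-1 was lost with DESeq2 (2.27, adjusted p = 0.0622) and without hypothalamus input replicate 2 (0.0545) or 3 (0.069), while the log2 fold change stayed between 2.11 and 2.40 in these and in the fits without the libraries numbered 1 (adjusted p = 0.0917) or both hypothalamus libraries numbered 2 (0.0949).

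Six3 fell by 1.94 (log2, with SE 0.40 and adjusted p = 0.00315), with input over IP at 2.085, 4.50 and 6.12. Nkx2-2 fell by 2.60 (SE 0.42, adjusted p = 0.00073), with ratios of 3.43, 4.87 and 15.97. Six6 fell by 2.77 (SE 0.65, adjusted p = 0.0119), with ratios of 8.12, 8.23 and 2.87. The Six3 call was lost without the 4 libraries numbered 3 (-1.61, adjusted p = 0.0901), and that of Six6 without hypothalamus input replicate 2 (-2.12, adjusted p = 0.0594). The call for Nkx2-2 held in every alternative fit that was run.

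**Figure D2:**
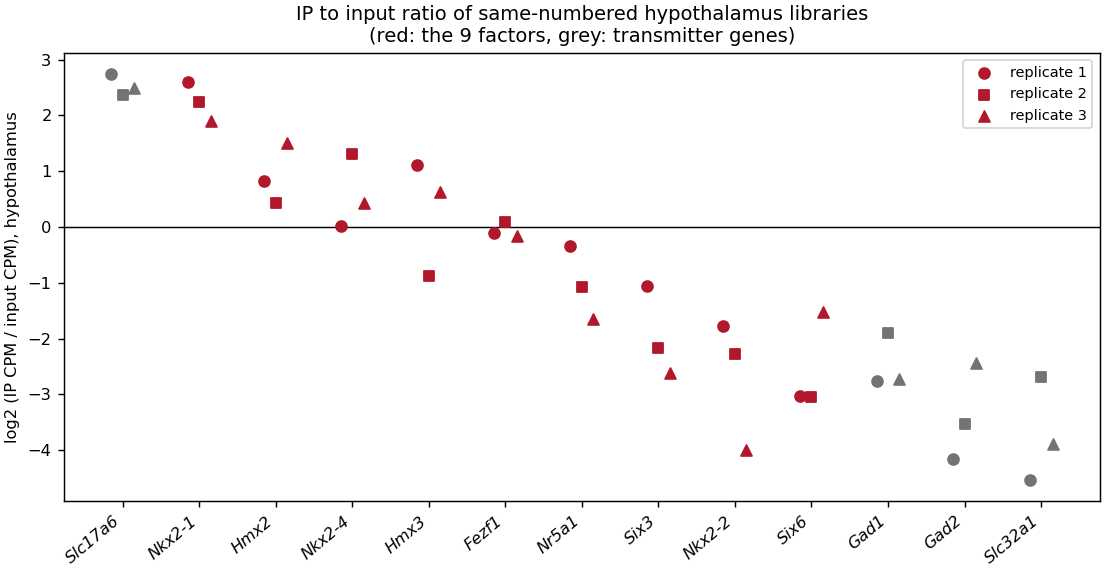
log2 of the ratio of IP CPM to input CPM (vertical axis) for same-numbered hypothalamus libraries; points are the 3 pairs, red for the 9 factors and grey for Slc17a6, Gad1, Gad2 and Slc32a1. Nkx2-1 lies beside Slc17a6 in all 3 pairs, and Six3, Nkx2-2 and Six6 lie below 0 in all 3.

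Markers of all glial, vascular and ventricular cell types listed were mostly or all lower in the IP beside these 3 factors. Of astrocyte markers 7 of 7 were lower, of microglia 6 of 6, and of ependyma and tanycytes 7 of 7. Of endothelial and mural cell markers 5 of 6 were lower. The summed level of 10 oligodendrocyte markers ran from 149.7 to 174.5 CPM in the hypothalamus IP and from 2180 to 2990 in the input, and all 10 were lower. For 5 markers of oligodendrocyte precursors, all 5 lower, the sums ran from 3.49 to 5.845 CPM in the IP and from 62.1 to 90.1 in the input, and no marker of either list was without counts. Of 12 GABAergic neuron genes 11 were lower, with a median log2 fold change of -3.56. The part of these cells in the lower level of Nkx2-2, Six3 and Six6 was not tested.

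Of the genes that overlap a member on the opposite strand, Six3os1, Nkx2-2os, 6430503K07Rik, 4930447C04Rik and Fgfr2 were lower in the hypothalamus IP. Nkx2-2os and 6430503K07Rik overlap Nkx2-2. Their log2 fold changes were -3.49 (edgeR adjusted p = 0.0268) and -5.16 (edgeR adjusted p = 0.000353). Six3os1 had 19.6 ± 2.35 CPM in the input against 2.85 ± 1.52 in the IP (log2 fold change -2.78, adjusted p = 0.00787). The transcript 4930447C04Rik, which overlaps Six6, went from 39.8 ± 12.6 to 7.98 ± 2.06 CPM (-2.32, adjusted p = 0.000275), and it was at 30.8 ± 1.49 CPM in the midbrain input, where Six6 had no count. Fgfr2, which spans Hmx2 and Hmx3, fell by 3.42 (log2, adjusted p = 3.73e-05), whereas Hmx2 (0.79) and Hmx3 (0.28) did not pass. It was at 107.9 ± 40.15 CPM in the midbrain input, beside 2 and 12 counts for Hmx2 and Hmx3. For Six6, Hmx2 and Hmx3 the overlapping gene was thus high in libraries where the member had few counts or none. For Six3 and Nkx2-2 the reads of the strands cannot be told apart. Nor can they for Nr5a1 and Nkx2-1, whose overlapping genes Nr5a1os and Gm26973 were not among the deposited gene rows.

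The ventromedial factors and the HMX pair did not pass between hypothalamus IP and input. Nr5a1 had a value of -0.74 on the log2 scale (SE 0.84, adjusted p = 0.54), with IP over input at 0.794, 0.476 and 0.319 in the 3 pairs. Fezf1 had -0.03 (SE 0.39, adjusted p = 0.962), with ratios of 0.924, 1.07 and 0.893. Nkx2-4 had 0.78 (SE 0.97, adjusted p = 0.579), Hmx2 0.79 (SE 0.72, adjusted p = 0.442) and Hmx3 0.28 (SE 1.18, adjusted p = 0.882). For Hmx2 the IP was above the input in all 3 pairs (1.77, 1.35 and 2.84), although the groups overlapped. Only Nr5a1 of these 5 was below its input in all 3 pairs.

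In the midbrain IP against input, where 33.9% of genes were called and 19.9% were lower, 3 of the 4 members with a value were lower: Nkx2-2, Six3 and Nkx2-1. Nkx2-2 fell by 3.29 (log2, with SE 0.44 and adjusted p = 0.000205), with input over IP at 7.56, 11.1 and 10.6. Six3 fell by 4.06 (SE 0.45, adjusted p = 5.57e-05), with ratios of 28.3, 14.4 and 15.6. For both, all IP libraries were below all inputs.

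Nkx2-1 was called lower (-4.04, SE 1.27, adjusted p = 0.0272) although the groups overlapped, and the call rested on midbrain input replicate 3: without it the value was -1.48 (adjusted p = 0.266). It was also lost without midbrain IP replicate 1 (0.0765) or 2 (0.0854), and with limma-voom it had adjusted p = 0.264. Hmx3 did not pass (adjusted p = 0.0754), with 12 counts in input replicate 2 and none in the other midbrain libraries. It passed with DESeq2 (adjusted p = 0.03) and without midbrain input replicate 1 (adjusted p = 0.0463). Nr5a1 and Hmx2, at or under the floor in both fractions, have no fold. The GABAergic list had 11 of 12 lower there too (median -3.77), and the oligodendrocyte sums ran from 254.5 to 388.1 CPM in the midbrain IP and from 4247 to 5663 in the input.

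The difference of the IP effect between regions could be given for Nkx2-1, Nkx2-2 and Six3, and 0 of these 3 passed (edgeR, where 0.0772% of genes did), while 2 were at an unadjusted p under 0.05. Nkx2-1 differed by 6.35 (log2, with SE 1.40 and adjusted p = 0.18), Six3 by 2.13 (SE 0.56, adjusted p = 0.31) and Nkx2-2 by 0.69 (SE 0.57, adjusted p = 0.995). DESeq2 called 2 of the 3, Nkx2-1 (6.50, adjusted p = 0.00777) and Six3 (2.13, adjusted p = 0.0325), and limma-voom called 0. By edgeR, the fall of Six3 from input to IP was thus not shown to differ between the regions.

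Per kb of exon, the order of the factors changed between fractions of the hypothalamus. In the IP, Nkx2-1 led at 68.0 ± 25.9 CPM per kb, followed by Fezf1 (7.49 ± 3.03), Six3 (3.98 ± 1.21) and Hmx2 (1.06 ± 0.348). The other 5, Hmx3, Nkx2-2, Nr5a1, Nkx2-4 and Six6, had means between 0.385 and 0.676 CPM per kb, and their spreads overlapped. The ranges of mean ± SD also overlapped between Fezf1 and Six3 and between Hmx2 and Hmx3. In the input, Six3 (15.2 ± 3.78) and Nkx2-1 (13.7 ± 2.57) did not differ beyond their spread. Fezf1 (7.65 ± 2.50), Nkx2-2 (4.06 ± 1.32) and Six6 (2.62 ± 1.835) followed, each within the spread of a neighbour, and Nkx2-4 was lowest at 0.318 ± 0.166. Of the midbrain inputs' levels only Six3 (6.895 ± 2.08) and Nkx2-2 (4.07 ± 1.19) were above 1 CPM per kb.

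The hypothalamus libraries differed among themselves in the 9 factors. Replicate 3 was the lowest library for 7 of 9 in the IP (all but Hmx2 and Hmx3). In the input it was the lowest for 7 of 9 (all but Nkx2-2 and Six3). Of the tested genes that averaged 1 CPM or more, this held for 35.2% in the IP and 29.9% in the input. That minimum was not applied to the 9 factors, and Nkx2-4 and Hmx3 were under it in both groups. For 5 members, Nr5a1, Fezf1, Nkx2-1, Nkx2-4 and Six6, replicate 3 was the lowest in both. Its Nr5a1 level was 0.108 times the mean of the other two in the IP and 0.212 times in the input. The summed level of 5 thalamic markers, none without counts, was 519.1, 843.0 and 2345 CPM for the hypothalamus IP libraries, and 349.9, 595.9 and 1051 for the inputs. Replicate 3 was thus the highest for thalamic markers and the lowest for most of the 9 factors, and the part of thalamic tissue in this was not tested.

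Replicate 2 stood apart in another way. The summed level of 9 anterior pituitary markers was 0.584, 61.4 and 0.356 CPM for the hypothalamus IP libraries, and 36.1, 1613 and 8.94 for the inputs. Of these, Prl, the gene of prolactin, was at 21.5, 994.5 and 5.64 CPM in the input, and Pou1f1, a pituitary lineage factor, at 0.147, 9.66 and 0. Among the hypothalamus inputs, Six6 and Nr5a1, which are also made in the pituitary, were highest in replicate 2, at 18.1 and 6.64 CPM. The other factors, except Nkx2-2, were also highest there. The share of all tested genes with this order was not computed, so the order only describes these libraries. In replicate 1, where the pituitary sum was 36.1 CPM, Six6 and Nr5a1 were at 9.98 and 6.06 CPM. Without both hypothalamus libraries numbered 2, Six6 did not pass between IP and input (-2.46, adjusted p = 0.081), members called fell from 4 to 2, and between the inputs members called fell from 5 to 3, with Fezf1, Nkx2-1 and Six6 still called. The part of pituitary RNA in the levels of replicate 2 was not tested.

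**Figure D3:**
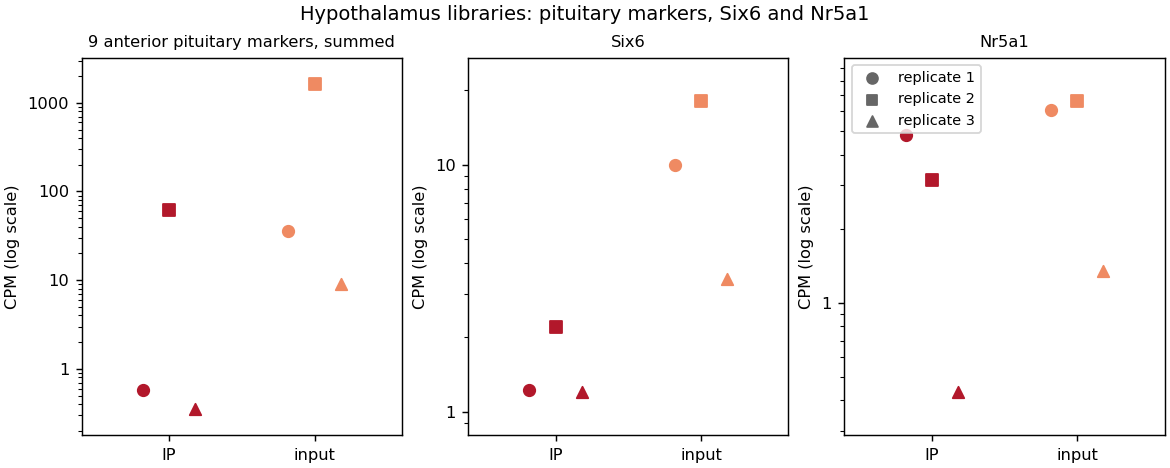
CPM (vertical axes, log scale) of 9 summed anterior pituitary markers, Six6 and Nr5a1 in the hypothalamus IP and input libraries; each point is a library and its shape is the replicate number. Replicate 2 has the highest pituitary sum in both fractions (61.4 and 1613 CPM) and the highest input level of Six6 (18.1 CPM).

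The genes most like each factor were taken from 12655 genes by the correlation of log2(CPM + 0.5) over the 12 libraries, which share region, fraction and depth within groups, and the values are a description. Nr5a1 was nearest to Tbx3 (r = 0.965), an arcuate and tuberal T-box factor, then Agrp (0.964) and Arhgap36 (0.942). Fezf1 was nearest to the insulin receptor substrate gene Irs4 (0.988), the imprinted gene Peg10 (0.985) and Asb4 (0.982). Nkx2-1 was nearest to Pmch (0.978), the gene of melanin-concentrating hormone, and the hypothalamic factors Bsx (0.976) and Sim1 (0.972). The 3 genes all had a higher mean CPM in the hypothalamus IP than in its input, as Nkx2-1 did. By edgeR, Bsx (log2 fold change 0.81, adjusted p = 0.43) and Sim1 (1.57, adjusted p = 0.0662) did not pass there. No test is given here for Pmch.

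Nkx2-2 was nearest to Lims2 (0.993), which had 1.37 and 11.2 CPM in the hypothalamus IP and input and 0.678 and 11.3 in the midbrain, then Tnfrsf18 (0.992) and Mat2a (0.982). Six3 was nearest to Palmd (0.972), Zbtb20 (0.954) and Lrrc58 (0.953). Six6 was nearest to the genes of vasopressin and oxytocin, Avp (0.960) and Oxt (0.953), and to Sytl4 (0.951). Avp had 1.82 CPM in the hypothalamus IP against 34.5 in the input. Hmx2 was nearest to Bsx (0.978), Otp (0.976) and Sec14l3 (0.963), while Nkx2-4 and Hmx3, with under 1 CPM in every group, were not compared.

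Around the 9 factors, 19 genes of the ventromedial nucleus were all tested. In the hypothalamus IP against input 4 were higher and 1 lower (median 0.37, beside -0.08 for all genes). Higher were Adcyap1 (1.89, SE 0.54, adjusted p = 0.0178), the gene of the peptide PACAP, the neurotrophin gene Bdnf (1.78), the synapse organiser gene Cbln1 (1.77) and the progesterone receptor gene Pgr (0.49). Dlk1 was lower (-1.39). Blocked by replicate number, 4 of the 19 were higher and 4 lower, beside 3544 and 4316 of 18128 genes tested. Between the IPs, Nos1 was higher in the hypothalamus (1.28) and Nptx2 lower (-1.53). Between the inputs, Gda (2.35), Esr1 (2.24), the oestrogen receptor gene, and Dlk1 (1.25) were higher in the hypothalamus. With the block 7 of the 19 were, beside 521 of 18128 genes tested. In the midbrain IP against input 7 were higher, where 14.0% of all genes were, among them Tac1 (2.31), Nptx2 (1.69), Adcyap1 (1.48) and Cbln1 (1.41). Replicate 3 was the lowest library for 11 of the 19 in the hypothalamus IP and for 9 of the 18 that averaged 1 CPM or more in the input.

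Of 21 other hypothalamic transcription factors tested (22 listed), 5 rose and 3 fell from hypothalamus input to IP (median -0.22). Among the higher were the mammillary factor Foxb1 (3.34, SE 0.38, adjusted p = 6.54e-05), Lhx9 (1.99), Lhx5 (1.59) and Lhx2, whose libraries overlapped. Among the lower were Pou3f2 (-0.88) and the tanycyte factor Rax. Lhx9 (14.99, 15.54 and 68.23 CPM) and Lhx2 (17.24, 24.2 and 82.33 CPM) were highest in hypothalamus IP replicate 3, as the thalamic markers were. Their midbrain IP means were 105.1 and 121.2 CPM. The part of thalamic tissue in this was not tested. With the block 6 of the 21 factors were higher and 6 lower, beside 3544 and 4316 of 18128 genes tested. Between the IPs 10 were higher in the hypothalamus, and Barhl1 was lower (-5.11). Among the higher genes, Tbx3 had no count in the midbrain IP and Otp had 1, while the log2 fold change was 7.42 for Bsx and 6.92 for Isl1. Between the inputs 5 were higher and Otx2 was lower (-2.64), or 8 and 4 with the block, beside 521 and 576 of 18128 genes tested. Foxb1 (4.46, SE 0.52, adjusted p = 0.00492) and Lhx5 (5.08, SE 0.51, adjusted p = 0.0019) passed for the regional difference of the IP effect, which no member did.

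**Figure D4:**
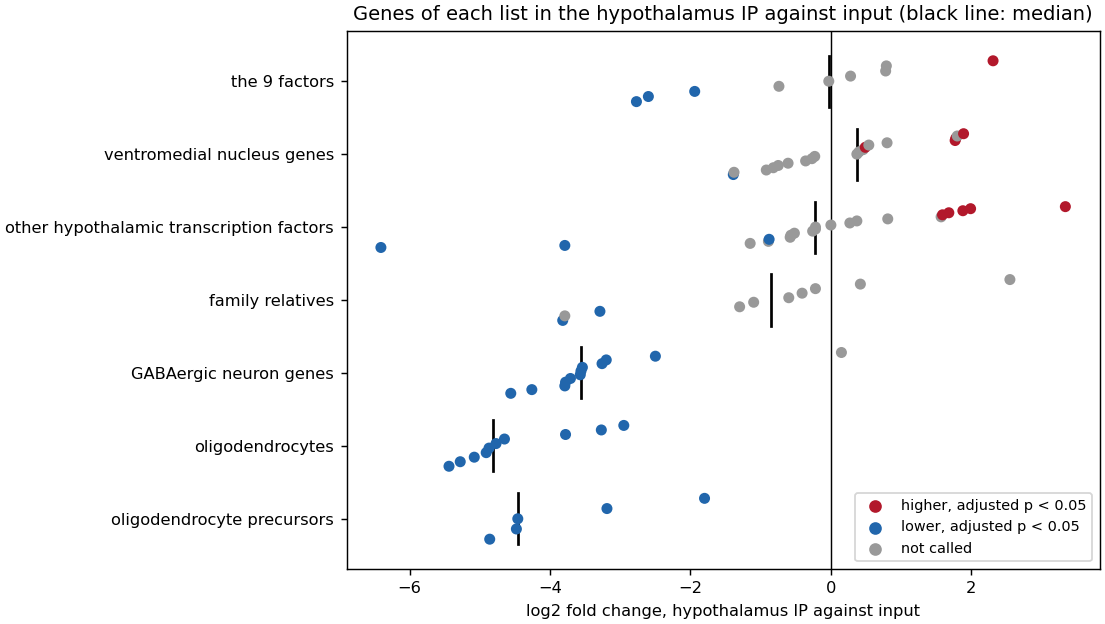
log2 fold change in the hypothalamus IP against input (horizontal axis) of the tested genes of 7 lists; points are genes, red higher and blue lower at an adjusted p under 0.05, grey not called, and black lines are medians. The 9 factors spread on both sides of 0, with 1 higher and 3 lower, while the GABAergic, oligodendrocyte and precursor lists lie below 0 with 11 of 12, 10 of 10 and 5 of 5 lower.

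Of 14 family relatives 10 were tested. In the hypothalamus IP, Six5 (-3.82, adjusted p = 0.029) and Nkx6-2 (-3.29, adjusted p = 0.000544), a homeodomain factor of myelinating cells, were lower and none was higher (median -0.85). In the midbrain IP 4 were lower: Nkx6-2 (-3.73), Six5 (-3.73), Nkx2-9 (-2.91) and Nkx6-1. Between the IPs Nkx6-1 was higher in the hypothalamus, at 1.15, 2.185 and 0.150 CPM against no count in the midbrain, and between the inputs no relative was called. Fezf2, the relative of Fezf1, did not pass between IP and input and had 211 of its 239 midbrain input counts in replicate 3, the library with most of the Nkx2-1 counts there (chosen after its values were seen).

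Of 15 cofactors and partners tested, Aes (0.87, adjusted p = 0.00195), a Groucho family corepressor, was higher in the hypothalamus IP, and Eya1 (-1.33, adjusted p = 0.0131), a coactivator that pairs with Six3 and its relatives, was lower. With the block 3 were higher and 4 lower, beside 3544 and 4316 of 18128 genes tested. Eya1 was also lower in the midbrain IP (-2.38), with Eya4 (-3.48), while Aes (0.82) and Ncor1 (0.42) were higher there. Between the IPs Eya4 (3.77) and the corepressor gene Tle4 (1.49) were higher in the hypothalamus. Of 11 peptide and hormone genes of the arcuate and dorsomedial nuclei tested, Cartpt was higher in the hypothalamus IP (1.97) and 4 were lower, among them Th (-1.92), Ghr (-1.38) and Sst (-1.25), with medians of -1.02 for the list and -0.08 for all genes. With the block 2 were higher and 6 lower, beside 3544 and 4316 of 18128 genes tested. The fourth of the lower genes was Pomc, whose libraries overlapped between IP and input. Its hypothalamus input levels were 18.35, 94.24 and 2.255 CPM, highest in replicate 2, the library with the highest sum of pituitary markers. The part of pituitary RNA in the Pomc call was not tested.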

How the data were processed

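Ribosome-bound and input RNA of 2 regions was sequenced in 12 libraries. The authors deposited raw read counts per gene symbol, made with STAR 2.0.0e (mm10) and HTSeq, per the submitters' processing notes. Annotation, strand setting and counting mode are not given in the sources used here. Summary rows and the row named unknown (at most 7 counts a library) were left out. The 9 factors and all lists were chosen with earlier results of these data known.

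Counts were fitted in R 4.3.3 with edgeR 4.0.16 (filterByExpr, which left 18128 genes, TMM, robust quasi-likelihood F test, 4 group means over 12 libraries, Benjamini-Hochberg over all genes tested, threshold 0.05), and the script was tested on simulated data. The SE is the absolute log2 fold change divided by the square root of F. Of each list, up to 4 genes a direction were named: the largest changes past the threshold with libraries that do not overlap and a mean of 1 CPM or more in the higher of the groups. Genes named beyond these complete a count. Some genes of the lists are counted but not reported here by name. A floor of 3 counts per library came to between 0.0537 and 0.071 CPM, and since PCR copies were not told apart, intervals and floors cover counting error only.

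Same-numbered libraries deviated together, by the rule that each correlation exceed 0.1, in hypothalamus IP and input (0.257, 0.115 and 0.126) and in the inputs of both regions (0.318, 0.127 and 0.153), so values with the replicate number as a block are given there where they change a call. Alternatives were other scalings, DESeq2 1.42.0, limma-voom (limma 3.58.1), other filters, the block, the compared groups alone, and each library left out. Fits without the libraries numbered 1 or 3, or both hypothalamus libraries numbered 2, were added after seeing the data.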

Additional observations from a re-analysis of the deposited data

Results flagged for a closer look

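The IP effect on Nkx2-1 had opposite directions in the regions. IP over input was 6.09, 4.72 and 3.74 in the hypothalamus pairs, and in the midbrain it was 0.277 and 0.0504 in replicates 1 and 3, with no IP count in replicate 2. The difference was 6.35 on the log2 scale (SE 1.40, edgeR adjusted p = 0.18; DESeq2 adjusted p = 0.00777). The midbrain side rested on 5 counts in the IP and 81 in the input, 71 of them in input replicate 3.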

How the results depend on the processing

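Depth limits Nkx2-4, Hmx3 and every midbrain value but those of Nkx2-2 and Six3, and with 3 libraries a group single libraries carried several calls. The cause of the changes below was not tested. Directions reversed only for members that were not called. In the hypothalamus IP against input, Fezf1 turned to 0.00 with no filter, 0.04 and 0.18 without input replicates 1 and 2, 0.25 without IP replicate 3, and 0.04 and 0.02 without the libraries numbered 3 and 1 (lowest -0.34, without IP replicate 2, in the direction of the main value). Nkx2-4 turned to -0.16 without IP replicate 2 (highest 1.21, without IP replicate 3), and Hmx3 to -0.11 without IP replicate 1 (highest 0.69, without input replicate 2) and to -0.23 without the libraries numbered 1. Nkx2-2 between the inputs, at 0.00, turned to 0.13 with library sizes alone, 0.24 and 0.25 without hypothalamus input replicate 1 and midbrain input replicate 2, and 0.08 without the libraries numbered 1. The fitted value of Hmx3 in the midbrain, which has no IP count and so depends on the prior count, ran from -5.68 without input replicate 1 to 0.00 without input replicate 2.

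Genes higher and lower in the hypothalamus IP against input numbered 1527 and 2001 without the libraries numbered 3, and 1337 and 2107 without both hypothalamus libraries numbered 2, with 1632 higher by library sizes alone. In the midbrain 1290 and 1837 were called without the libraries numbered 3. The regional difference gave 11 higher and 3 lower, but 129 and 84 with DESeq2, 17 higher with no filter, 0 lower with limma-voom, 2 and 0 without the libraries numbered 3, 7 higher without those numbered 1, and 5 and 0 without both hypothalamus libraries numbered 2. Between the IPs 372 and 401 became 848 and 952 with DESeq2, 112 and 84 with only the groups compared (members called 8 to 5; Nr5a1 at 0.0589, Nkx2-4 at 0.0855 and Hmx3 at 0.0537), 138 and 151 without the libraries numbered 3, and 154 and 132 without both hypothalamus libraries numbered 2. Between the inputs 182 and 109 became 429 and 333 with DESeq2, 53 and 26 without the libraries numbered 3, and 48 and 20 without both hypothalamus libraries numbered 2, with 173 lower by limma-voom and 204 lower with only the groups compared. Without the libraries numbered 1, Nkx2-4 and Hmx3 were lost between the IPs (adjusted p = 0.0769 and 0.0909) and Nr5a1 between the inputs (0.057), where Six3 passed (0.0344). Without those numbered 3, Nkx2-4 (0.0755) and Hmx3 (0.154) were lost between the IPs, as they were without both hypothalamus libraries numbered 2 (0.123 and 0.112). In that fit, members called were 2 between hypothalamus IP and input and 3 between the inputs. DESeq2 called 2 members for the regional difference.

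With each library left out in turn, members called ran from 2 to 4 in the hypothalamus IP against input and from 3 to 5 between the inputs. Genes higher ran from 8 to 27 and lower from 0 to 11 for the regional difference, 199 to 387 and 174 to 440 between the IPs, and 65 to 212 and 28 to 152 between the inputs.

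With the replicate block, genes higher and lower were 58 and 47 for the regional difference, 800 and 1224 between the IPs, and 521 and 576 between the inputs, and Nkx2-2 between the inputs was 0.03. Same-numbered libraries did not pair by the rule in midbrain IP and input (0.153, 0.067 and 0.133) or in the IPs (0.222, 0.08 and 0.171), although each library correlated best with its own number. The block ended the midbrain call of Nkx2-1 (-3.99, adjusted p = 0.0878). Beside that and the calls for Nkx2-4 and Six3 between the inputs, it changed no other call of a member.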
